A study of Mus musculus with 22 samples.

Results

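The genes described here are named for subunits of oxidative phosphorylation, 84 of them in the nucleus and 8 in the mitochondrial genome. They were taken by gene name from tables of 20565 genes. By name the 92 members belong to complexes I to V of the inner mitochondrial membrane, without covering every subunit. By complex, the nuclear members number 38 (complex I), 4 (II), 9 (III), 16 (IV) and 17 (V). The mitochondrial members are mt-Nd1, mt-Nd2, mt-Nd3, mt-Nd4, mt-Nd5, mt-Nd6, mt-Cytb and mt-Co1, while mt-Co2, mt-Co3, mt-Atp6, mt-Atp8 and mt-Nd4l were not analysed here. The 4 names that end in ps were left out, and Uqcrh-ps1, a pseudogene by its name, stayed in because its name ends in a digit.

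The libraries are bulk RNA sequencing of 22 mice and come in 4 groups: 6 male cKO, 5 male WT, 6 female cKO and 5 female WT. All mice carried floxed Smc3, all received tamoxifen by oral gavage, and per the labels' protocols they were 8 week old mice and were taken 6 weeks after tamoxifen. The cKO mice carried Camk2a-cre/ERT2, a tamoxifen-dependent Cre under a promoter active in forebrain excitatory neurons, and the WT mice did not. By its title the series concerns anxiety-like behavior in the 2 sexes after loss of neuronal SMC3, a subunit of the cohesin ring. In such bulk tissue the other cells keep Smc3, and fewer cells of a type cannot be told apart from less RNA per cell.

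Oxidative phosphorylation is the main source of ATP in neurons. Complexes I to IV pass electrons from NADH and succinate to oxygen and pump protons, except complex II, which pumps none, and complex V uses the proton gradient to make ATP. Complex II is built from nuclear subunits alone, and the other complexes combine nuclear with mitochondrial subunits. The mitochondrial strands are transcribed as long precursors that are cut into single RNAs. Members on the same strand therefore share their transcription, and mt-Nd6 is on the strand opposite to the other mitochondrial members.

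Promoters of respiratory genes are known for binding NRF1, the ETS-family factor GABP and YY1. Windows of 300 bases around the RefSeq start (250 before it and 50 after it, build GRCm38.p6) were matched for 68 of the 84 nuclear members by symbol. The NRF1 letters GCGCATGCG stood on either strand in 8 windows (11.8% of members, against 1.95% of 27025 gene windows). The ETS letters CCGGAAG stood in 17 (25% against 9.93%), the YY1 letters ATGGCGG in 10 (14.7% against 4.69%) and the letters TATAAA in 7 (10.3% against 15.7%). None of these letter runs contains another, and a match is no evidence of binding. Of the 8 members with an NRF1 match, the 4 with the smallest p between genotypes in either sex are shown. They are Atp5l, the g subunit of complex V (chr9:44920693-44920992, minus strand), Cox6a1 of complex IV (chr5:115348909-115349208, minus strand), Ndufa11 of the complex I membrane arm (chr17:56717512-56717811, plus strand) and Uqcrc1, a core protein of complex III (chr9:108936398-108936697, plus strand). Capitals mark matches to any of these 4 letter runs, and the NRF1 run nearly mirrors itself, so overlapping matches on both strands appear as one run.
Atp5l: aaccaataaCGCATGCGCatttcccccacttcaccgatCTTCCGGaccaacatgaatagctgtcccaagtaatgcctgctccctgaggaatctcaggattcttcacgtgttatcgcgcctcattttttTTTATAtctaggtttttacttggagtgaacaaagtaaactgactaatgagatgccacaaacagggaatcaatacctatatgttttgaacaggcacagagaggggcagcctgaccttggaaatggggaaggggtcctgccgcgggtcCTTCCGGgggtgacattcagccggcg
Cox6a1: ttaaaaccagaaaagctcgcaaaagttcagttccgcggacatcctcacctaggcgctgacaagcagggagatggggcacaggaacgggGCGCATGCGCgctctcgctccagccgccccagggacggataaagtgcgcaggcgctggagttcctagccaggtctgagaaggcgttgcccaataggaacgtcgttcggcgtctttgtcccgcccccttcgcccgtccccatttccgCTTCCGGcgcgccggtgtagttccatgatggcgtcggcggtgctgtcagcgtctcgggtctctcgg
Ndufa11: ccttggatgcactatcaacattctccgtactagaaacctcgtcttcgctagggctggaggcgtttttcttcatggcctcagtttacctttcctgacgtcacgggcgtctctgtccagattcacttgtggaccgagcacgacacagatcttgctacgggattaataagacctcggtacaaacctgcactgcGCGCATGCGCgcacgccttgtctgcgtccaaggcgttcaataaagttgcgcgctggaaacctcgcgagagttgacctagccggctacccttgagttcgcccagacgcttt
Uqcrc1: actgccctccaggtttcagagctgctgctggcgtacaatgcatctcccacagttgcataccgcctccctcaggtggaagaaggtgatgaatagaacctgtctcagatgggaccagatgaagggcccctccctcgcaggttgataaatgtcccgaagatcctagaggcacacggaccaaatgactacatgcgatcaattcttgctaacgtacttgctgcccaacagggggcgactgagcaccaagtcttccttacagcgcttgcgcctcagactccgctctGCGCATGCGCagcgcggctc

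Library totals lay between 12771354 and 15028342 counts for the 11 males and between 13832715 and 16896239 for the 11 females. The sample titles name the hypothalamus and the tissue field the prefrontal cortex. Summed cortex markers ran from 942 to 2653 CPM (a count over its library's TMM-scaled total), and summed hypothalamus markers from 4.25 to 66.1 CPM. In every library the cortex sum was thus far above the hypothalamus sum, which goes with the tissue field and not with the titles. Smc3 itself averaged 142 ± 16.1 CPM in male libraries labelled cKO and 82.4 ± 10.1 CPM in male WT (SD, n = 6 and 5), and 130 ± 10.1 CPM in female libraries labelled cKO and 74.3 ± 6.36 CPM in female WT (SD, n = 6 and 5). The fold change was 0.79 ± 0.10 (SE, log2) in males and 0.81 ± 0.073 in females, with adjusted p of 0.00541 and 9.17e-05 by edgeR. The targeted gene was therefore higher in the libraries labelled cKO, and a count over the whole gene does not show whether exons were lost. All directions below go by these labels.

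Before any comparison, 3 libraries stood apart in the subunits: male cKO replicate 13, male WT replicate 5 and female WT replicate 26. They are the 3 libraries with the highest summed level of the cytosolic ribosomal protein genes, another group of short abundant messenger RNAs, at 8709, 8803 and 8624 CPM, while the next highest library had 7259 CPM. Male cKO 13 held the highest level of its group for 65 of the 74 nuclear subunits with a mean of at least 10 CPM (87.8%), male WT 5 for 67 (90.5%) and female WT 26 for 68 (91.9%). Among the 10331 other genes at that level, these libraries were the highest of their group for 27.8%, 25.8% and 22.9%. In males 1 of them belongs to each genotype, and the one female library is WT. Male cKO 14 was high too, with a ribosomal sum of 7195 CPM. Its summed nuclear and mitochondrial subunits were 11960 and 52710 CPM, above the 11610 and 48600 CPM of male WT 5. It held the highest level of its group for 6 of 74 nuclear subunits, in a group where cKO 13 held 65. Female cKO replicate 27 came next by the count of highest subunits, with 58 of 74 (78.4%, against 13.04% of the other genes) and 41 of 54 ribosomal protein genes. Its ribosomal sum of 7129 CPM lay below that of female WT 18 (7259 CPM), and none of the 7 mitochondrial subunits was highest in it.

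The excess in these 3 libraries was greater for subunits with short transcripts. In male cKO 13, nuclear subunits under 1 kb (42 genes) stood at a median of 0.68 log2 units above the mean of the other male cKO libraries, and those of 1 kb or more (32 genes) at 0.32. The same medians were 0.56 and 0.30 in male WT 5 and 0.47 and 0.28 in female WT 26. Across the 74 members, Spearman's rho between length and excess was -0.65, -0.65 and -0.57 in these libraries, a description across genes, which are not independent. Genes of all kinds showed the same order of lengths: in male cKO 13 the median over 405 genes under 1 kb was 0.47 log2 units above the group median, and the median over 3938 genes above 4 kb was -0.20. Ndufa13, a complex I subunit, with a transcript of 1251 bases stood 0.95 log2 units higher in male cKO 13, while Sdha, the flavoprotein of complex II with a transcript of 2900 bases, stood at -0.21. Male cKO 13 and male WT 5 also had the highest summed oligodendrocyte markers of their groups, at 12740 and 10300 CPM. Their summed astrocyte markers were the lowest of their groups, at 3449 and 2960 CPM. Female WT 26 stood at its group median for both, at 7227 and 4074 CPM. The part of tissue make-up in the excess was not tested.

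**Figure D1:**
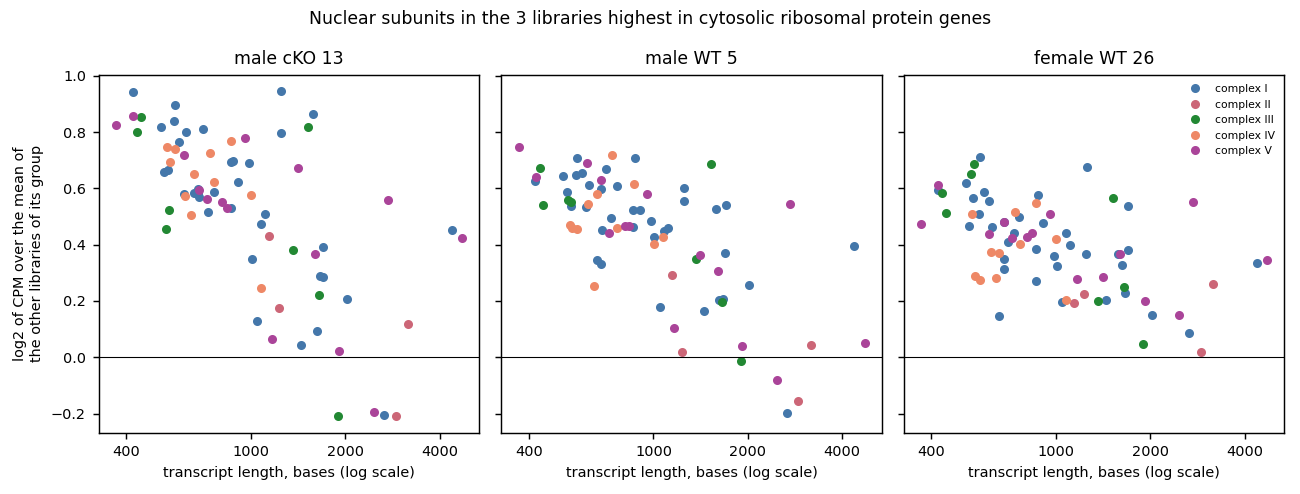
Excess of 74 nuclear subunits in the 3 libraries that stood apart, as the log2 ratio of CPM to the mean of the other libraries of the group (vertical axis) against transcript length in bases (horizontal axis, log scale). Each point is a gene, coloured by complex. Points fall from about 0.6 or more for many short transcripts to near or below 0 for some long ones, such as Sdha at -0.21 in male cKO 13. Other long transcripts stayed higher in that library: Atp5g1 (4715 bases) at 0.42, Ndufb2 (4371 bases) at 0.45 and Atp5md (2733 bases) at 0.56.

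Expressed per kilobase of the annotated principal transcript, the mitochondrial subunits were far more abundant than the nuclear ones. The 7 mitochondrial members with at least 10 CPM had a median of 3595 CPM per kb, against 110 CPM per kb for 74 nuclear members, a ratio of 32.5. mt-Co1, a catalytic subunit of complex IV, was the highest at 8353 CPM per kb, followed by mt-Cytb of complex III at 7855 and mt-Nd1 of complex I at 7001. mt-Nd4 was the lowest of the 7 at 2535 CPM per kb. mt-Nd3 stood far below them at 4.89 CPM per kb, so mt-Nd1 exceeded it 1431-fold. That mt-Nd3 value is from 1.70 CPM on average, and how its reads were counted was not tested.

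Among nuclear subunits the highest levels per length belonged to complexes IV and V. Cox4i1, a core nuclear subunit of complex IV, stood at 610 CPM per kb and Atp5b, the catalytic beta subunit of complex V, at 596 CPM per kb. The complex medians were 192 CPM per kb for complex IV (11 genes), 145 for complex V (15), 109 for complex III (8), 90.1 for complex I (36) and 84.6 for complex II (4). The levels within complex I ranged from 9.94 CPM per kb for Ndufb2 to 346 CPM per kb for Ndufa4, which later work assigns to complex IV. Lengths are of 1 annotated transcript per gene, which for Ndufb2 is 4371 bases and for Atp5g1 4715 bases, so a level per kb is low wherever a shorter form is the one expressed.

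The paralogues with restricted tissue patterns were near the lower end. Cox4i2 stood at 1.59 CPM per kb beside 610 for Cox4i1, and Cox6a2, the heart and muscle form, at 3.63 beside 565 for Cox6a1. Cox6b2, known from testis, stood at 3.48 CPM per kb beside 241 for Cox6b1, and Cox7a1, another muscle form, at 2.17 beside 159 for Cox7a2. Cox7b2 stood at 0.596 CPM per kb beside 115 for Cox7b, and Ndufa4l2 at 2.26 beside 346 for Ndufa4. Of the 3 genes for the identical c-ring protein of complex V, Atp5g3 was the highest at 333 CPM per kb, with Atp5g1 at 17.3 and Atp5g2 at 11.6. Atp5l (9.81), Ndufb4 (7.86) and Ndufs5 (22.8 CPM per kb) were also low. Reads shared with near-identical copies may have been left out by the authors' counting, so levels this low are uncertain.

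**Figure D2:**
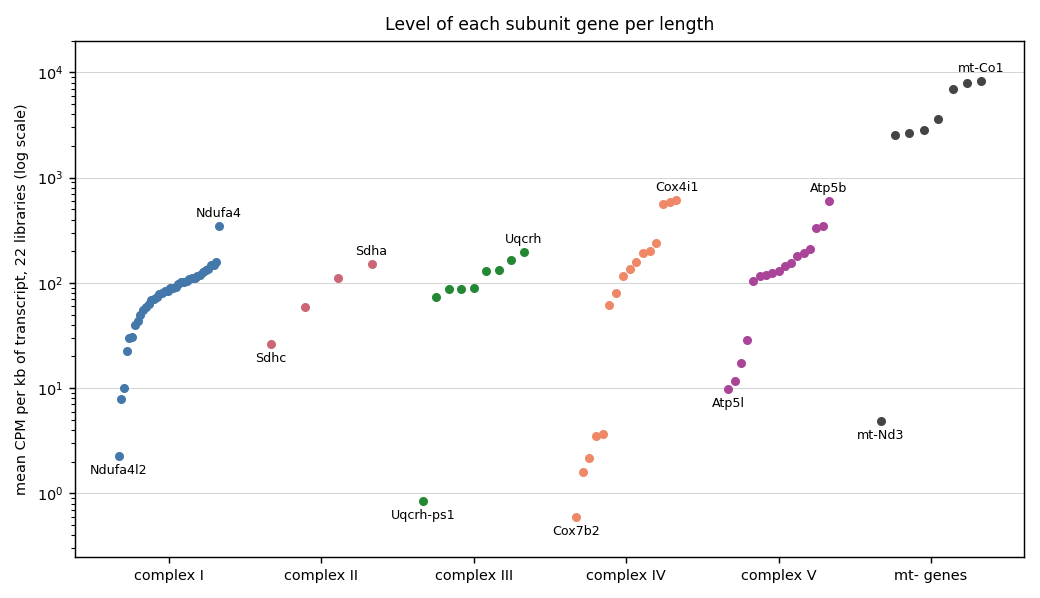
Mean CPM per kb of transcript over 22 libraries (vertical axis, log scale) for all 92 members, grouped by complex, with the mitochondrial genes at the right. Each point is a gene, and the lowest and highest of each group are named. The mitochondrial members other than mt-Nd3 lie at 2535 CPM per kb or above, and the highest nuclear member, Cox4i1, lies at 610.

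The spread over all 22 libraries was lowest for complex II, the complex with the longest transcripts. Its median coefficient of variation was 8.72%, against 16.6% to 18.5% for the nuclear subunits of the other 4 complexes and 15.97% for the mitochondrial members with at least 10 CPM. Median transcript lengths were 2066 bases in complex II and 659 to 955 bases in the others. The summed complex II level ran from 646 CPM (female WT 19) to 801 CPM (female cKO 27).

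In males, no subunit passed the test between cKO and WT (edgeR quasi-likelihood test, Benjamini-Hochberg adjusted p under 0.05 over 16098 genes). Both directions held 0 of the 82 nuclear and 8 mitochondrial members that passed the filter on low counts. Over all genes, 0.0808% were called higher and 0.503% lower. At an unadjusted p under 0.05, 3 nuclear members were higher in cKO and none was lower, against 3.94% and 5.55% of all genes. The 3 are Cox5a, Atp5g1 and Atp5c1, so their share of 82 is close to that of all genes. No subunit was higher without overlap of the male groups and none was lower, against 0.739% and 1.35% of all genes. DESeq2 called no member in either sex, while it called 0.579% of all genes higher and 1.4% lower in males and 1.48% and 3.7% in females. The authors' deposited table likewise gives no member an adjusted p under 0.05 in males, and its lowest value is 0.192 for Atp5c1.

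The summed nuclear subunits of male cKO ranged from 8901 to 13430 CPM with a median of 9980, and those of male WT were 9868, 8617, 9248, 11610 and 9211 CPM. The groups overlapped, and the highest value of each came from the library that stood apart. Of 82 nuclear members, 75 had a fold change above 0 in cKO (91.5%, against 52.1% of all genes tested). Their median log2 fold change was 0.14 against 0.0085 for all genes tested. That median was 0.032 without male cKO 13 and 0.24 without male WT 5, and it was 0.13 without the 3 libraries that stood apart.

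In complex I, which takes electrons from NADH, Ndufs4, an accessory subunit of the NADH-oxidising arm, had the smallest p in males. It ranged from 48.7 to 67.8 CPM (median 49.7) in male cKO, and was 41.3, 41.0, 41.8, 61.2 and 44.4 CPM in male WT. All 6 cKO libraries lay above 4 of the 5 WT libraries, and WT 5 lay within the cKO range. The log2 fold change was 0.25 ± 0.13 (SE) with an adjusted p of 0.634 by edgeR. Ndufa1, a small membrane-arm subunit, had the highest fold change of complex I in males, 0.32, with a 95% interval of -0.17 to 0.82. Its fold change was 0.12 without male cKO 13 and 0.47 without male WT 5. It was 79.5 CPM in cKO 13 and 53.2 CPM in WT 5, and at most 52.5 CPM in the other male libraries. Ndufs7, a core iron-sulfur subunit, had one of the lowest fold changes, -0.0055, with an interval of -0.42 to 0.41.

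In complex II, Sdhd, a membrane anchor, ranged from 66.1 to 79.1 CPM (median 71.1) in male cKO and was 71.7, 61.4, 64.1, 66.1 and 63.7 CPM in male WT. The groups overlapped, with a log2 fold change of 0.13 ± 0.073 (SE) and an adjusted p of 0.642 by edgeR. In complex III, Uqcrfs1, the Rieske iron-sulfur protein, ranged from 110 to 151 CPM (median 114) in male cKO and was 105, 96.2, 99.3, 129 and 105 CPM in male WT. Again WT 5 alone reached the cKO range, and the log2 fold change was 0.20 ± 0.11 (SE), adjusted p = 0.648 by edgeR. All 8 tested members of complex III and all 4 of complex II had fold changes above 0, with medians of 0.19 and 0.093.

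In complex IV, Cox5a, a matrix-side subunit around the catalytic core, had the smallest p of all members in males. It ranged from 80.9 to 126 CPM (median 89.3) in male cKO and was 84.2, 65.1, 68.7, 88.1 and 78.1 CPM in male WT. Its log2 fold change was 0.30 (95% interval 0.026 to 0.58), with an unadjusted p of 0.0347 and an adjusted p of 0.453 by edgeR. With the mean log2 CPM of the cytosolic ribosomal protein genes as a covariate, an alternative chosen after seeing the data, Cox5a passed with a fold change of 0.30 and an adjusted p of 0.0358 by edgeR. In that fit 0.497% of all genes were called higher and 1.51% lower. Cox7a2l, known as a supercomplex assembly factor, had the lowest fold change among nuclear members with at least 10 CPM, -0.028 (interval -0.28 to 0.22).

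In complex V, Atp5g1, a gene for the c-ring protein, ranged from 68.8 to 109 CPM (median 85.4) in male cKO and was 78.4, 63.3, 75.3, 73.8 and 67.7 CPM in male WT. Atp5g1 had a log2 fold change of 0.27 ± 0.12 (SE) with an adjusted p of 0.487 by edgeR. Atp5c1, the gamma subunit of the central stalk, ranged from 161 to 179 CPM in male cKO and from 145 to 165 CPM in male WT. Its fold change of 0.15 had an unadjusted p of 0.0420. Atp5l, the member whose promoter holds NRF1, ETS and TATAAA letters above, had a fold change of -0.29 in males at 5.34 CPM over all libraries (unadjusted p = 0.151). The 7 mitochondrial members with at least 10 CPM all had male fold changes above 0, from 0.098 (mt-Nd4) to 0.29 (mt-Nd6), and every one of their intervals held 0. The mt-Nd4 value was 0.0086 without male cKO 13 and 0.23 without male WT 5.

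In females, the counts of called subunits were also 0 in both directions among 82 nuclear and 8 mitochondrial members (edgeR quasi-likelihood test, adjusted p under 0.05 over 16123 genes). Over all genes, 0.62% were called higher and 2.75% lower. At an unadjusted p under 0.05, 4 nuclear members were higher, 1 mitochondrial member was lower, and 6.59% and 9.14% of all genes were. In the authors' deposited table no member has an adjusted p under 0.05 in females, and the lowest value is 0.198, for Atp5b.

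Summed nuclear subunits ranged from 10250 to 11700 CPM (median 10790) in female cKO and were 9226, 10310, 8544, 10690 and 12220 CPM in female WT. All 6 cKO values lay inside the WT range, and the WT values were more spread, with an SD of 477 CPM in cKO and 1417 CPM in WT. Of 82 nuclear members, 71 had fold changes above 0 (86.6%, against 52.9% of all genes tested). Their median was 0.067 against 0.011 for all genes. This median was 0.0103 without female WT 19, 0.027 without female WT 16, 0.035 without female cKO 27 and 0.16 without female WT 26.

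Ndufa1 had the highest female fold change of the nuclear members with at least 10 CPM. It ranged from 41.9 to 52.1 CPM (median 43.8) in female cKO and was 33.8, 35.8, 28.4, 36.6 and 50.8 CPM in female WT. All cKO libraries lay above 4 of the 5 WT libraries, and WT 26 lay within the cKO range. The log2 fold change was 0.28 (95% interval 0.017 to 0.54), with an adjusted p of 0.281 by edgeR. Without WT 26 it was 0.41 with an adjusted p of 0.0192, and with the ribosomal covariate 0.34 with an adjusted p of 0.0124, both by edgeR. Uqcrb, the ubiquinone-binding subunit of complex III, ranged from 48.6 to 54.7 CPM (median 50.1) in female cKO and was 39.5, 41.8, 31.8, 45.1 and 62.1 CPM in female WT. Here too WT 26 was the only WT library that was not below all cKO libraries. It had a fold change of 0.20 and an adjusted p of 0.487, and 0.35 and 0.0420 without WT 26, by edgeR. Without WT 19, the lowest WT library, the fold change of Uqcrb was 0.10 and that of Ndufa1 was 0.19, and neither passed. In the fit without WT 26, 0.738% of all genes were called higher and 3.45% lower, and in that with the covariate 1.25% and 3.98%. WT 26 held the highest WT level of Ndufa1 and Uqcrb, so leaving it out raises their fold changes by construction. The covariate itself leaned by genotype in females, where 50 of 58 cytosolic ribosomal protein genes had fold changes below 0. Female fold changes fitted with it depend on that lean.

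Ndufs1, the largest iron-sulfur subunit of complex I, was the one member whose female groups did not overlap. It was 143, 139, 142, 145, 145 and 138 CPM in female cKO and 133, 134, 108, 134 and 135 CPM in female WT. Its log2 fold change was 0.14 with an unadjusted p of 0.0388 and an adjusted p of 0.281 by edgeR. Among all genes tested in females, 0.949% were higher and 2.71% lower without overlap, so 1 of 82 is near the share for higher genes. In males its groups overlapped, at 118 to 148 CPM in cKO and 112 to 135 CPM in WT.

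Cox5a ranged from 86.5 to 99.01 CPM (median 95.9) in female cKO and was 72.8, 81.9, 74.8, 89.0 and 96.7 CPM in female WT. Its log2 fold change was 0.18 (95% interval 0.015 to 0.35), with an unadjusted p of 0.0349 and an adjusted p of 0.269 by edgeR. Atp5b ranged from 1166 to 1301 CPM (median 1237) in female cKO and was 1035, 1113, 953.7, 1164 and 1225 CPM in female WT. All 6 cKO libraries lay above 4 of the 5 WT libraries, and the fold change was 0.17 ± 0.074 (SE) with an adjusted p of 0.272 by edgeR. Sdha, the succinate-oxidising subunit of complex II, ranged from 458 to 497 CPM in female cKO and from 395 to 461 CPM in female WT, with a fold change of 0.11 and an adjusted p of 0.401 by edgeR. Uqcrfs1 had the smallest p of complex III, at 113 to 133 CPM (median 127) in female cKO and 99.6, 116, 99.1, 132 and 128 CPM in female WT. The groups overlapped, and its fold change was 0.14 with an adjusted p of 0.453 by edgeR. The lowest fold changes among nuclear members with at least 10 CPM were -0.066 for Cox7a2l and -0.036 for Ndufs6, a zinc-binding subunit of complex I.

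**Figure D3:**
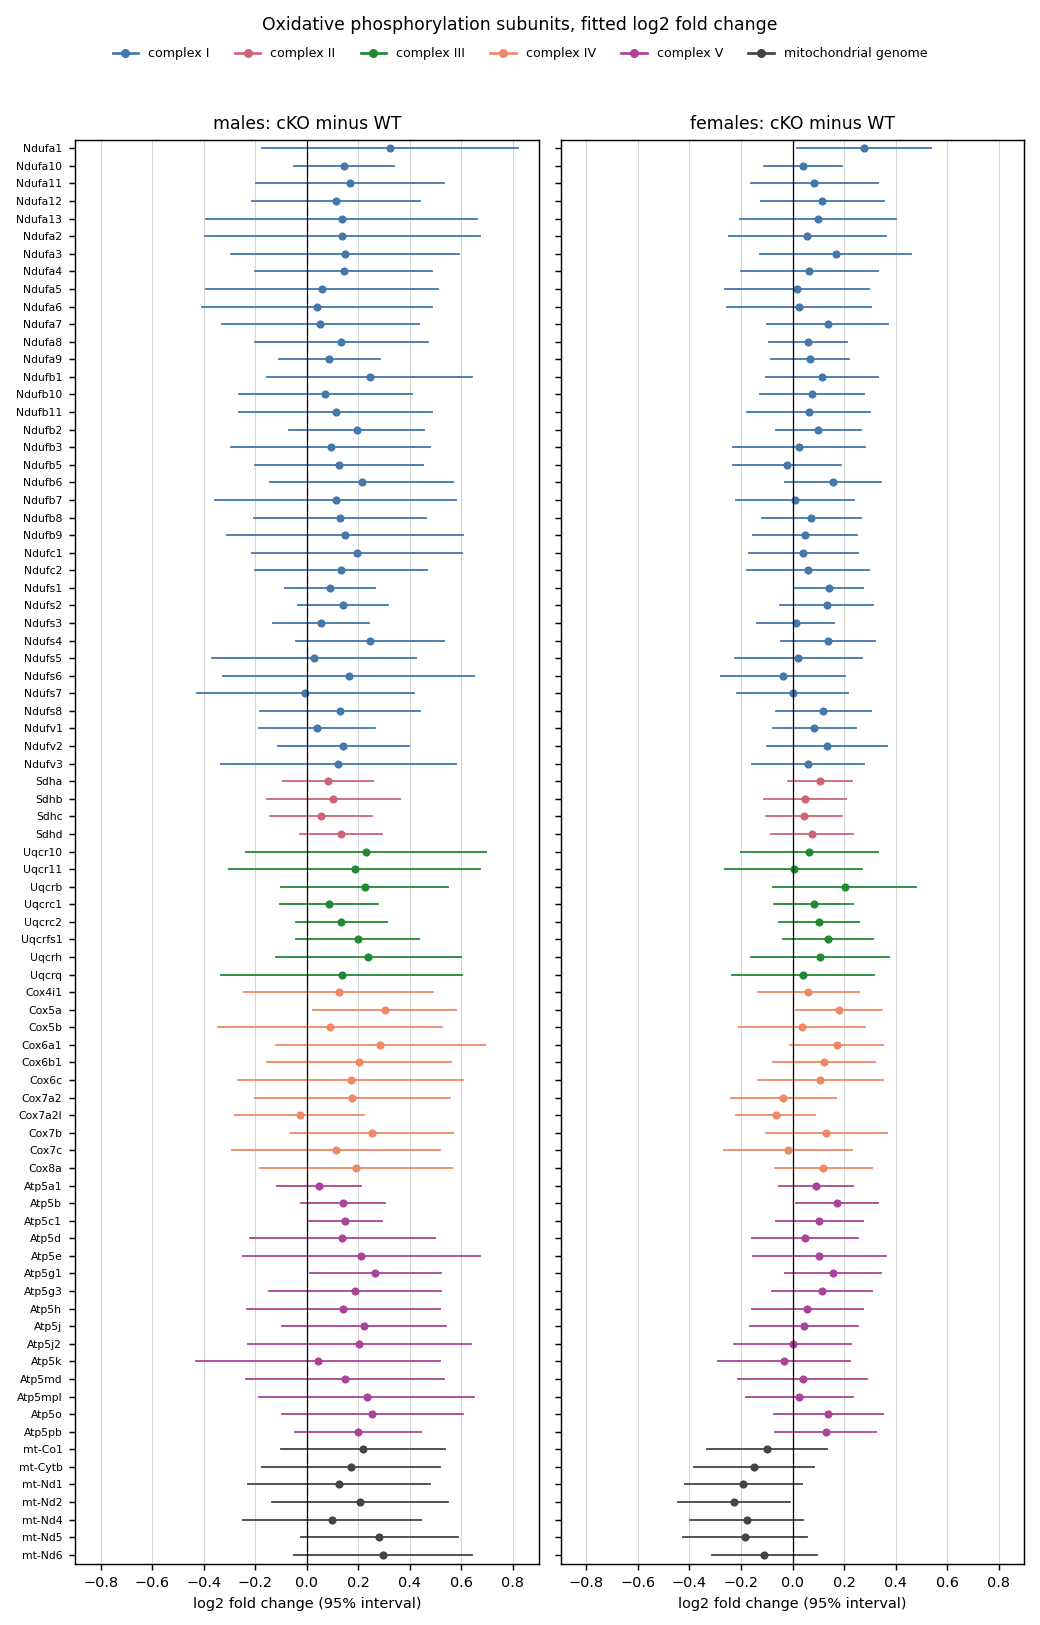
Log2 fold change of cKO minus WT with its 95% interval (horizontal axis) for the 81 members with a mean of at least 10 CPM, males at the left and females at the right. Points are genes ordered and coloured by complex. Most nuclear points lie above 0 in both sexes with intervals that hold 0 (71 of 74 in males and 70 of 74 in females), while the mitochondrial points lie above 0 in males and below 0 in females.

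Each 95% interval bounds the change of its own gene in the main fit, and together they are no joint bound over all members. In females, all 74 abundant nuclear members and all 7 abundant mitochondrial members had intervals inside a 1.5-fold change either way (0.585 on the log2 scale). In males this held for 56 of 74 nuclear and 5 of 7 mitochondrial members, and all had intervals inside a change of 1 log2 unit. The widest upper bound was 0.82 in males, for Ndufa1.

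Of the 8 mitochondrial members, 7 had fold changes of opposite sign in the sexes. Their summed level ranged from 34230 to 55030 CPM (median 42110) in male cKO and was 36860, 33270, 37290, 48600 and 36370 CPM in male WT. In female cKO it ranged from 35160 to 46670 CPM (median 40490), and in female WT it was 39410, 47170, 40390, 47460 and 51980 CPM. The groups overlapped in both sexes. Over 8 members the median log2 fold change was 0.19 in males and -0.18 in females, and 7 of 8 were above 0 in males and none in females. Single libraries moved these medians by over 1.5 times: the male one was 0.12 without male cKO 13 and 0.29 without male WT 5, and the female one -0.10 without female WT 26. mt-Nd3, at 0.92 to 2.76 CPM, was the exception in males with -0.26 (interval -0.90 to 0.38), and it was -0.18 in females. Fold changes were, for mt-Nd1, 0.13 in males and -0.19 in females, for mt-Cytb 0.17 and -0.15, for mt-Nd4 0.098 and -0.18, and for mt-Co1 0.22 and -0.099. Leaving out 1 library at a time turned none of the mitochondrial signs within a sex but moved several sizes. In males, mt-Nd1 was 0.049 without cKO 13, 0.064 without cKO 14, 0.077 without WT 3 and 0.25 without WT 5. Male mt-Cytb was 0.087 without cKO 13 and 0.29 without WT 5, and male mt-Nd3 -0.42 and -0.025 without the same libraries. In females without WT 26, mt-Nd1 was -0.12, mt-Nd4 -0.11, mt-Cytb -0.092, mt-Co1 -0.059 and mt-Nd3 -0.076. Female mt-Co1 was -0.059 without cKO 21 too and -0.16 without WT 16, and female mt-Nd3 was -0.37 without cKO 20.

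mt-Nd2, a membrane-arm subunit of complex I, was the only mitochondrial member with an unadjusted p under 0.05 within a sex. It ranged from 3204 to 4132 CPM (median 3429) in female cKO and was 3685, 4328, 3588, 4268 and 4880 CPM in female WT. Its log2 fold change was -0.23 (95% interval -0.44 to -0.0090), with an adjusted p of 0.292 by edgeR. In males it ranged from 2882 to 4847 CPM (median 3878) in cKO and was 3187, 3010, 3456, 4286 and 2917 CPM in WT, a fold change of 0.21. Within each sex, mt-Nd5 had fold changes of 0.28 and -0.19 and mt-Nd6 of 0.29 and -0.11, in males and in females. The female mt-Nd5 value was -0.12 without female cKO 21, and that of mt-Nd6 was -0.071 without female WT 25 and -0.18 without female WT 16. Male mt-Nd2 was 0.13 without male cKO 14.

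The genotype by sex term, fitted over all 22 libraries, called no gene of 16855 by edgeR. At an unadjusted p under 0.05 it held 3 of the 8 mitochondrial and none of the 82 nuclear members, against 0.475% of all genes in the higher and 0.57% in the lower direction. DESeq2 called no member here either. For all 3 the fold change in females was below that in males: mt-Nd5 by a log2 difference of -0.47 (interval -0.84 to -0.096), mt-Nd2 by -0.43 (-0.82 to -0.044) and mt-Nd6 by -0.40 (-0.80 to -0.012). Their unadjusted p-values were 0.0161, 0.0307 and 0.0438, and each adjusted p was 1.0. mt-Nd5, another membrane-arm subunit, ranged from 4043 to 6595 CPM in male cKO and from 3889 to 5013 CPM in male WT, and from 3375 to 5456 CPM in female cKO and from 4812 to 5324 CPM in female WT. mt-Nd6 is read from the strand opposite to the other 7 members, and the strand setting of the counting is not given in the sources used here. The median difference was -0.32 over mitochondrial and -0.064 over nuclear members, and the 8 mitochondrial genes are not independent of each other.

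The ratio of the summed mitochondrial to the summed nuclear subunits ranged from 3.43 to 4.31 (median 3.64) in female cKO and was 4.27, 4.58, 4.73, 4.44 and 4.25 in female WT. Only female cKO 24, at 4.31, reached the WT values. In males the ratio ranged from 3.504 to 4.75 (median 4.20) in cKO and from 3.74 to 4.19 in WT, so the cKO range enclosed that of WT. The ratio is a sum over members and has no test. It was 4.10 in male cKO 13, inside its group's range, 4.19 in male WT 5, the highest of its group, and 4.25 in female WT 26, the lowest of its group.

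**Figure D4:**
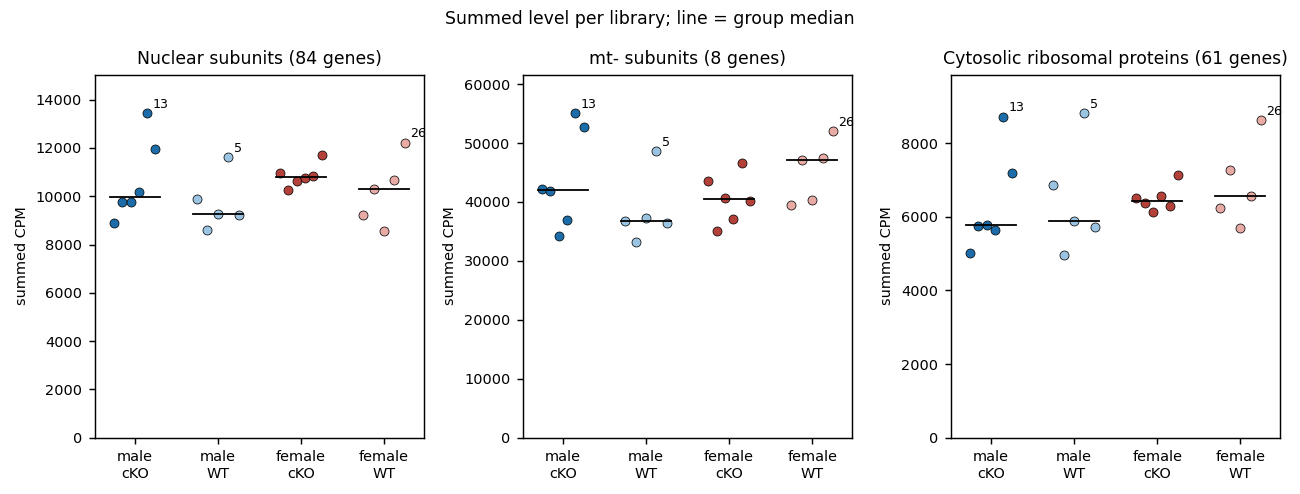
Summed CPM per library (vertical axis, from 0) of the nuclear subunits, the mitochondrial subunits and the cytosolic ribosomal protein genes in male cKO, male WT, female cKO and female WT. Points are libraries, lines are group medians, and the 3 libraries that stood apart are numbered. Their nuclear sums of 13430, 11610 and 12220 CPM are the highest of their groups, and the female cKO mitochondrial median of 40490 CPM lies below the female WT median of 47170 CPM.

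**Figure D5:**
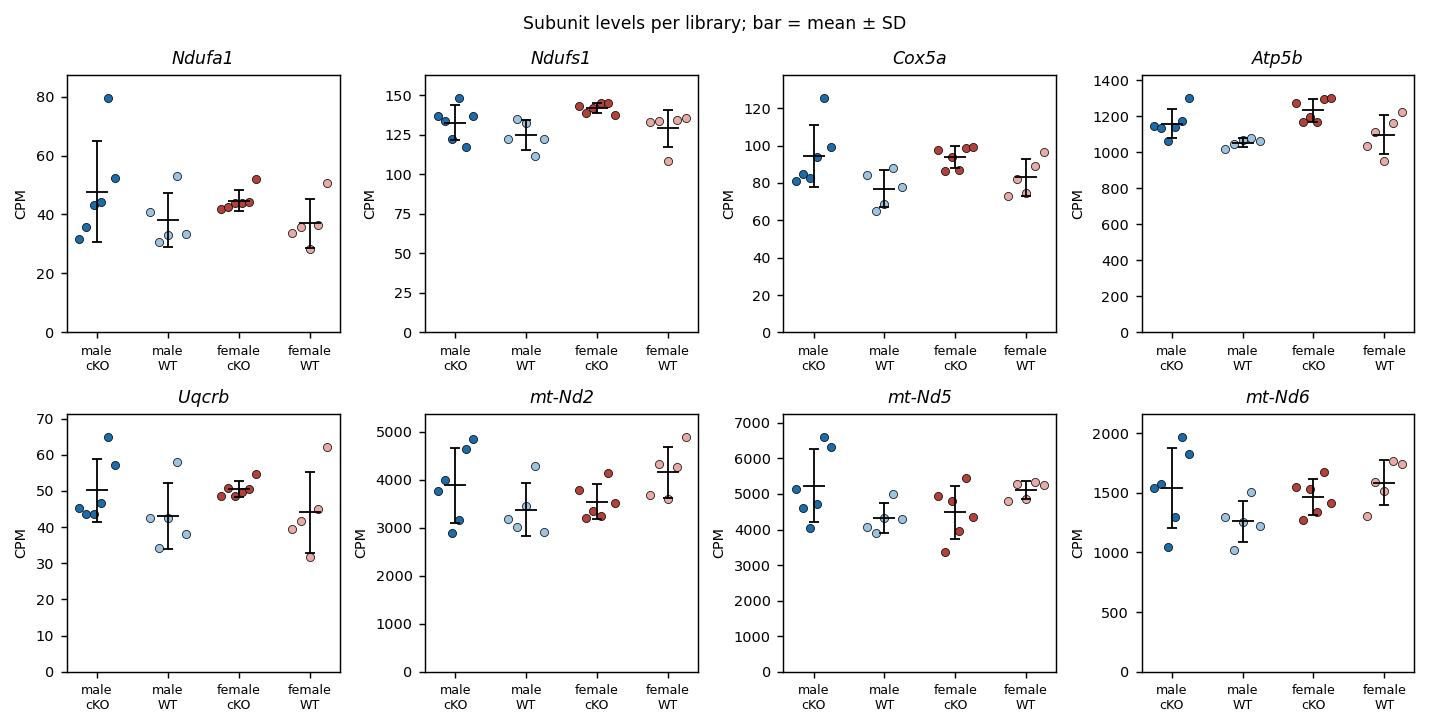
CPM per library (vertical axis, from 0) of 8 members in the 4 groups. Points are libraries and bars show the mean ± SD. Ndufs1 does not overlap between female cKO and WT, and mt-Nd2, mt-Nd5 and mt-Nd6 have higher group means in male cKO and lower group means in female cKO than in WT of the same sex.

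Averaging the genotype effect over both sexes, an alternative chosen after seeing the data, called 414 genes higher (2.46%) and 787 lower (4.67%) of 16855 but no subunit. The lowest adjusted p-values by edgeR were 0.0606 for Atp5b (log2 fold change 0.15), 0.0630 for Cox5a (0.24) and 0.0984 for Atp5g1 (0.21). At an unadjusted p under 0.05, 12 of 82 nuclear members were higher and none was lower, against 8.84% and 11.2% of all genes. The 2 sexes have no libraries in common. In both, 69 of 82 nuclear members (84.2%) had fold changes above 0, against 38.0% of 15787 genes tested in both. For the cytosolic ribosomal protein genes this share was 12.1% of 58, and for the mitochondrial ribosomal protein genes 50% of 52. Nuclear members were high together in single libraries, so they are not independent of each other, and these shares have no test. Leaving out single libraries, the nuclear median ran from 0.032 to 0.24 in males and from 0.0103 to 0.16 in females.

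Other mitochondrial genes and, beside them, the cytosolic ribosomal protein genes were read from the same fits. In neither sex was a gene of the 9 lists called, by edgeR at an adjusted p under 0.05. These lists hold 240 genes tested, of which 58 are cytosolic ribosomal protein genes. The average over both sexes called 6 of the 240 (2.5%), all higher in cKO, against 2.46% of all genes called higher in that fit. None of the cytosolic ribosomal protein genes was among them, so the share is larger for the mitochondrial lists alone. The 6 are Slc25a5, Ndufaf4, Tmem126a, Cox18, Sdhaf4 and Pdhb. Their fold changes there ran from 0.17 (Ndufaf4) to 0.33 (Sdhaf4). Counts above 0 in these lists stand beside 52.1% of all genes tested in males and 52.9% in females. Of the 33 tested assembly factors of complexes II to V, 24 had male and 18 female fold changes above 0, with medians of 0.058 and 0.039. The female share of 54.55% is near that of all genes. Sdhaf4, which aids the assembly of complex II, was 18.1 ± 2.16 CPM in male cKO and 13.4 ± 1.44 CPM in male WT (SD, n = 6 and 5), with a fold change of 0.44 and an adjusted p of 0.130 by edgeR. It passed by DESeq2 (adjusted p = 0.0136), and by edgeR in the fit of all 4 groups (0.0477) and with the ribosomal covariate (0.0260). The share of all genes called in the fit of all 4 groups was not counted, here or for Pdhb below. Of 17 complex I assembly factors, 17 were above 0 in males and 11 in females, with medians of 0.080 and 0.0896. Ndufaf4 had the smallest p there in males, at 44.1 ± 3.36 CPM in cKO and 37.0 ± 1.89 CPM in WT (SD, n = 6 and 5; adjusted p = 0.185 by edgeR, and 0.0427 by DESeq2). In females the smallest p belonged to Tmem126a among complex I factors (fold change 0.23, adjusted p = 0.175 by edgeR) and to Cox18, which inserts a complex IV subunit into the membrane, among the others (0.21, adjusted p = 0.184 by edgeR).

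Slc25a5, an adenine nucleotide carrier that exchanges ADP for ATP, led the 11 carriers and pores in both sexes. It was 170 ± 16.3 CPM in male cKO and 142 ± 10.98 CPM in male WT, and 177 ± 8.46 CPM in female cKO and 149 ± 21.2 CPM in female WT (SD, n = 6 and 5). Its fold changes were 0.26 and 0.25 with adjusted p of 0.285 and 0.148 by edgeR, and 0.0381 and 0.00785 with the ribosomal covariate. In females that covariate itself leaned by genotype, as given with Ndufa1 above. Pdhb, a subunit of pyruvate dehydrogenase, led the 18 genes of that enzyme and the tricarboxylic acid cycle, with fold changes of 0.23 in males and 0.15 in females (adjusted p = 0.219 and 0.215 by edgeR). In males it passed by DESeq2 (adjusted p = 0.0256) and by edgeR in the fit of all 4 groups (0.0448). In that list 17 male and 15 female fold changes were above 0.

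Ppargc1a, the coactivator known for mitochondrial biogenesis, ranged from 28.7 to 35.8 CPM (median 32.6) in female cKO and from 33.2 to 43.1 CPM (median 39.9) in female WT. Its fold change was -0.24 with an adjusted p of 0.143 by edgeR, the smallest p of 17 biogenesis regulators in females. In males that was Gabpb1, a subunit of GABP (0.15, adjusted p = 0.601 by edgeR). Median fold changes of that list were 0.079 in males and 0.017 in females. For 27 genes of mitochondrial DNA and RNA upkeep the medians were 0.046 and 0.0102, and for the 52 mitochondrial ribosomal proteins 0.071 and 0.014. Mterf3 had the smallest p of the upkeep genes in both sexes (0.17 in males and 0.14 in females, adjusted p = 0.628 and 0.388 by edgeR). For the mitochondrial ribosome it was Mrpl15 in males (0.25, adjusted p = 0.345) and Mrpl9 in females (0.13, adjusted p = 0.369), both by edgeR. Subunits and electron carriers outside the name rule, led by Cycs (cytochrome c) in males (0.24, adjusted p = 0.614 by edgeR) and Ndufab1 in females (0.15, adjusted p = 0.404 by edgeR), had 7 of 7 fold changes above 0 in both sexes with medians of 0.16 and 0.081, where Atp5md of that list is counted only among the members. The cytosolic ribosomal protein genes had medians of -0.0065 in males and -0.069 in females, with the smallest p for Rpl23a in males (0.21, adjusted p = 0.672) and Rps15a in females (-0.13, adjusted p = 0.262), both by edgeR.

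Cell-type markers varied widely between libraries beside these results. The 10 oligodendrocyte markers summed to 2509 to 12740 CPM in male cKO and 1856 to 10300 CPM in male WT, and to 4538 to 14670 CPM in female cKO and 3281 to 10630 CPM in female WT. The 10 excitatory neuron markers summed to 3985 to 6201 CPM in male cKO and 3584 to 6372 CPM in male WT, and to 3808 to 5681 CPM in female cKO and 4276 to 7514 CPM in female WT. No marker of either list was at 0 in any library, and none passed the test between genotypes in either sex, while 9 of 10 neuron markers had female fold changes below 0 with a median of -0.25. No marker of the other lists passed in males. In females 5 did by edgeR: the interneuron markers Sst and Vip were lower in cKO (-0.63 and -1.32, adjusted p = 0.00798 and 0.00911), as were the cortex marker Emx1 (-0.69, adjusted p = 0.0499) and the hypothalamus marker Trh (-1.205, adjusted p = 0.0175), and the oligodendrocyte precursor marker Gpr17 was higher (0.39, adjusted p = 0.0445). Of the 8 interneuron markers, 4 were above 0 and 4 below in females, with a median of -0.037. Their sums were 950 to 1515 CPM in female cKO and 855 to 1420 CPM in female WT. Of the 4 oligodendrocyte precursor markers, 2 were above 0 and 2 below in females. The other cortex markers were, like Emx1, below 0 in females, 6 of 6 in all with a median of -0.32. The cortex sums were 1107 to 2330 CPM in female cKO and 1192 to 2653 CPM in female WT. Of the choroid plexus and ependyma markers, 5 of 5 tested were above 0 in females with a median of 0.75, and their sums were 22.1 to 611 CPM in female cKO and 4.47 to 58.1 CPM in female WT. The oligodendrocyte markers were above 0 in 10 of 10 in females (median 0.44) and 9 of 10 in males (0.13). The striatum markers were above 0 in 6 of 6 in females (0.24) and 1 of 6 in males (-0.12), the blood markers in 3 of 3 in each sex (0.37 in both), and the leptomeningeal markers in 4 of 6 in females (0.31) and 6 of 6 in males (0.47). By edgeR, the average over both sexes called the astrocyte marker Gfap higher (0.88, adjusted p = 0.000941). It also called Col1a1 of the leptomeninges (0.68, adjusted p = 0.0309) and Gpr17 (0.32, adjusted p = 0.00765) higher. Vip (-0.96, adjusted p = 0.00383) and Emx1 (-0.49, adjusted p = 0.0475) were called lower there. Of 8 astrocyte markers, 6 were above 0 in each sex, with medians of 0.058 in males and 0.031 in females. The part of these cell types in the subunit results was not tested. With the oligodendrocyte markers as a covariate the nuclear medians were 0.083 in males and 0.084 in females, the mitochondrial medians 0.17 and -0.13, and no member passed.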

How the data were processed

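Per the labels' protocols, libraries were made from messenger RNA with a NEBNext Ultra II kit. The authors deposited whole-number counts of reads per gene, one table per sex. The submitters' processing notes list DESeq2, HTSeq, STAR and cutadapt with build GRCm39. Tool versions, gene models and the strandedness of counting were not stated in the sources used here, so reads shared by overlapping genes or near-identical copies may be split or lost. The 22 columns of normalized counts were not used. The authors' deposited table also gives log2 fold changes, p-values and adjusted p-values, of which signs and adjusted p-values are quoted where so named.

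A filter on low counts (filterByExpr, minimum count 10 and minimum total 15) and TMM scaling came before the quasi-likelihood F test of edgeR 4.0.16 (with limma 3.58.1 under R 4.3.3), run for each sex alone on its whole table, with Benjamini-Hochberg adjustment over all genes tested and 0.05 as threshold. Fold changes are cKO minus WT on the log2 scale. The difference between sexes is the genotype by sex term over 22 libraries, females minus males. SE is the size of the fold change divided by root F, and intervals are 95%. CPM are counts relative to the TMM-scaled total of all 22 libraries. Levels per kb use lengths of the GENCODE vM21 principal transcript (GRCm38), and no gene coordinates of the deposited build are printed. RefSeq promoters are of build GRCm38.p6. DESeq2 1.42.0 was an alternative. The fits were tested on simulated data.

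Each mouse has its own number and its own library. No 2 replicates agreed within sampling noise: over 50 pairs, chi-square divided by its degrees of freedom was at least 6.28. One count column is numbered 20 while a title reads cKO2 with a hyphen, and it was used as a female cKO replicate. Intervals cover the spread between libraries, and totals limit precision for genes of few counts.

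The members and lists were chosen with earlier results of these data known. Named in each sex are every member past the threshold, the smallest p of each complex, the 2 highest and 2 lowest fold changes among nuclear members with at least 10 CPM, all mitochondrial members, the 3 smallest p of the difference, Smc3, paralogue sets and the smallest p of each companion list. Atp5c1, Ndufs1, Ndufa13, Atp5l, Ndufa11, Uqcrc1 and Cox6a1 (as promoter examples or singled-out values) were chosen after their values were seen.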

Additional observations from a re-analysis of the deposited data

Results flagged for a closer look

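Of 108 values of groups of libraries examined, 11 had 1 library far from the others, by its gap to the nearest library relative to the group's range. For independent values chance gives about 1 in 20. These values are sums and members from the same libraries and are not independent, so that rate is no yardstick for them. In male WT replicate 5, the summed mitochondrial subunits were 48600 CPM, while the other 4 male WT libraries lay between 33270 and 37290 CPM. In that library mt-Co1 was 14340 CPM (others at most 11450), mt-Nd1 8217 CPM (at most 6076) and mt-Nd3 2.74 CPM (at most 1.62). Ndufs4 was 61.2 CPM there (others at most 44.4) and Uqcrfs1 129.0 CPM (at most 105.0).

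In female cKO replicate 27, the summed nuclear subunits of complex I were 3540 CPM, while the other 5 libraries lay between 3051 and 3226 CPM. Ndufa1 was 52.1 CPM there (others at most 44.2), Ndufs6 62.5 CPM (at most 50.5) and Uqcrb 54.7 CPM (at most 50.8). Sdha was 395.0 CPM in female WT replicate 19, the one such value on the low side, while the other female WT libraries lay between 446 and 461 CPM.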

How the results depend on the processing

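No paired analysis was possible because no replicate number occurs in more than 1 group. The number of nuclear members called higher was 0 in each sex and moved to 1 in males and 1 in females with the ribosomal covariate, to 2 in females without female WT replicate 26, and to 2 in females without the 3 libraries highest in cytosolic ribosomal protein genes. For females those last settings are the same fit. In females, the covariate and the omission of WT 26 carry the limits given with Ndufa1 above. Over leaving out 1 library at a time, the female count of nuclear members called higher ran from 0 to 2. No other count of called members moved in any comparison under another scaling, no filter on low counts, DESeq2, an oligodendrocyte covariate or a fit of all 4 groups. The ribosomal covariate, the fit without 3 libraries and the average over sexes were chosen after seeing the data. Leaving out 1 library at a time, the nuclear median ran from 0.032 to 0.24 in males and from 0.0103 to 0.16 in females, and the mitochondrial median from 0.12 (without male cKO 13) to 0.29 (without male WT 5) and from -0.22 to -0.10 (without female WT 26). The median difference between sexes ran from -0.18 to 0.034 for nuclear members, above 0 without male cKO 13 (0.034) or female WT 26 (0.024), and from -0.44 to -0.25 for mitochondrial members.

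Fold changes near 0 changed sign in 12 settings, with the cause not tested. In males, Cox7a2l was 0.069 without male WT 5 and 0.027 without the 3 libraries, and ran from -0.072 to 0.069 over leaving out 1 library at a time. Ndufs7 was 0.000747 with no filter, 0.0126 without male cKO 12, 0.096 without male cKO 8, 0.025 without male cKO 9, 0.0138 without male cKO 10, 0.023 without male WT 1 and 0.11 without male WT 5, and ran from -0.14 to 0.11. In females, Ndufs6 was 0.076 without female WT 26 and likewise 0.076 without the 3 libraries, and 0.0066 with the ribosomal covariate, and ran from -0.11 to 0.076. Depth limits mt-Nd3 and the restricted paralogues, which had few counts.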
